A study of Homo sapiens with 18 samples.

Results

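The genes described here are 43 that are known to respond to low oxygen or that carry out glycolysis, taken as a list written from general knowledge and found by their symbols in the tables. The list was chosen with earlier results of these data known. All 43 were among the 40916 symbols listed, and all 43 passed the filter on low counts in every comparison. They were followed in human cell cultures whose polyadenylated RNA was sequenced, with 3 libraries in each of 6 groups, described by the submitters as biological replicates. MCF10A, an epithelial line from the mammary gland that is not transformed, carried a histone H2B-GFP reporter. HCT116, from a colorectal carcinoma, was p53-null and carried no label. Both were grown alone and as mixed cultures described as 50% of each line, and every kind of culture was either given 10 Gy (IR) or left without irradiation (NIR). The labels name no vehicle or other agent, and all HCT116 cells carried the p53-null genotype, with or without irradiation. MCF10A was grown in a medium with horse serum, EGF, hydrocortisone, cholera toxin and insulin, and HCT116 in McCoy's 5A with fetal bovine serum. The labels give neither the oxygen tension nor the medium used for mixing. The titles give the harvest as day 2 and the series text as 72 h after irradiation. The study set irradiated cells against unirradiated cells within each kind of culture, and mixed cultures against single lines.

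Cells sense oxygen through the hypoxia-inducible factors (HIF). HIF1A and EPAS1, which encodes HIF-2 alpha, are the oxygen-regulated subunits. With oxygen present, prolyl hydroxylases of the EGLN family mark both proteins for destruction, and when oxygen is low the proteins persist and switch on their targets. EGLN3 and EGLN1 are themselves such targets, which makes a feedback loop. Other targets move glucose into the cell, speed its breakdown to lactate and hold back the oxidation of pyruvate. Still others remove mitochondria, export acid, modify collagen and signal to blood vessels. Many tumour lines keep glycolysis high with oxygen present, and glycolytic genes are also driven by other factors. Transcript levels of HIF1A and EPAS1 do not measure HIF protein, which is controlled mainly after translation.

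The libraries held 25737818 to 40839835 counts. Levels are counts × 1000000 over a library's total (CPM), given as mean ± SD over 3 libraries or library by library in the order of replicates 1, 2 and 3. Gene length is not in the tables, so levels are compared between groups and never between genes. The summed level of 8 basal mammary markers was 8090 to 8721 CPM in MCF10A NIR and 25.3 to 32.0 CPM in HCT116 NIR. The 9 intestinal and simple epithelial markers summed to 9.36 to 11.2 CPM in MCF10A NIR and 1047 to 1336 CPM in HCT116 NIR. All 8 basal markers reached 1 CPM in MCF10A NIR. In HCT116 NIR only 4 of the 9 did, namely KRT19 and EPCAM, which are general epithelial genes (means of 886 and 315 CPM), and the intestinal genes CDX2 and KRT20 (10.0 and 1.13 CPM). LGR5, CDH17, VIL1 and LGALS4 were under 1 CPM there and CDX1 was at 0. Mitochondrially encoded genes took 5.10% to 12.7% of counts, and their group means were higher after irradiation in MCF10A (5.19% and 6.20%), HCT116 (8.62% and 12.0%) and the mixed cultures (8.54% and 12.3%). RNA of MCF10A made up about 0.447% of the RNA in the mixed NIR libraries (0.399% to 0.503%) and 1.24% in the mixed IR libraries (1.17% to 1.29%), as estimated from genes present in 1 line alone. In bulk RNA, fewer cells of a line and less RNA per cell cannot be told apart.

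Most of these genes fell after irradiation in HCT116, while in MCF10A more rose than fell. In MCF10A, 18 of the 43 members rose after 10 Gy and 9 fell, where 26.2% of all genes tested rose and 29.2% fell. The members' median log2 fold change (IR over NIR, so that 1 is a 2-fold rise) was 0.17 in MCF10A, beside 0.0035 over all genes tested. Under upper-quartile normalization, 24 members rose and 8 fell in MCF10A, and 57.5% of all called genes were higher in place of 47.4%. In HCT116, 4 members rose and 37 fell, where 25.3% of all genes tested rose and 27.2% fell. Their median log2 fold change in HCT116 was -0.67, beside 0.0072 over all genes. The mixed cultures had 4 members that rose and 33 that fell, with 24% of all genes tested rising and 25.4% falling, and a members' median of -0.51 beside 0.012. A rise or fall here means an adjusted p-value under 0.05 in edgeR's quasi-likelihood test, adjusted over all genes tested with the Benjamini-Hochberg method. These p-values set the difference between groups against the spread between the 3 cultures of a group, estimated with information shared across genes.

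The difference between the 2 lines in their response was itself tested. Line, medium, the p53-null genotype of HCT116 and the reporter of MCF10A go together in this design, so their parts cannot be told apart. The response of HCT116 lay below that of MCF10A for 37 of the 43 members and above it for 1 (SLC2A1), where 15.4% of all genes tested lay above and 21.9% below. The median difference was -0.75 over the members and -0.10 over all genes. With the mitochondrially encoded genes left out of the counts, 35 members lay below and 3 above, and the medians were -0.65 and -0.0059. The split of all called genes moved with that choice, from 41.3% above to 52.5% above. The 5 members whose response did not differ beyond the threshold were CA9, CA12, SLC2A3, PFKM and PFKFB3.

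By direction, 14 members rose in MCF10A and fell in HCT116. They were HIF1A, EGLN3, KDM3A, ADM, NDRG1, VEGFA, ANGPTL4, BHLHE40, BNIP3, BNIP3L, P4HA1, P4HA2, ALDOA and PFKFB4. A further 15 fell in HCT116 with no call in MCF10A. In both lines 8 fell, namely FAM162A, SLC2A3, HK2, GPI, TPI1, ENO1, LDHA and PDK1. EPAS1, CA12 and SLC2A1 rose in both lines. LOX rose in MCF10A alone, PFKM fell in MCF10A alone and PFKFB3 rose in HCT116 alone, with no call in the other line. The share of all genes tested with each joint direction was not counted, so whether these counts are unusual was not tested. Calls in MCF10A for EGLN3, KDM3A, ALDOA, FAM162A, GPI, PDK1 and LOX were lost in some other fits, as given below. So were the calls in HCT116 for P4HA2 and SLC2A3. The counts of ALDOA are uncertain, as also given below.

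**Figure D1:**
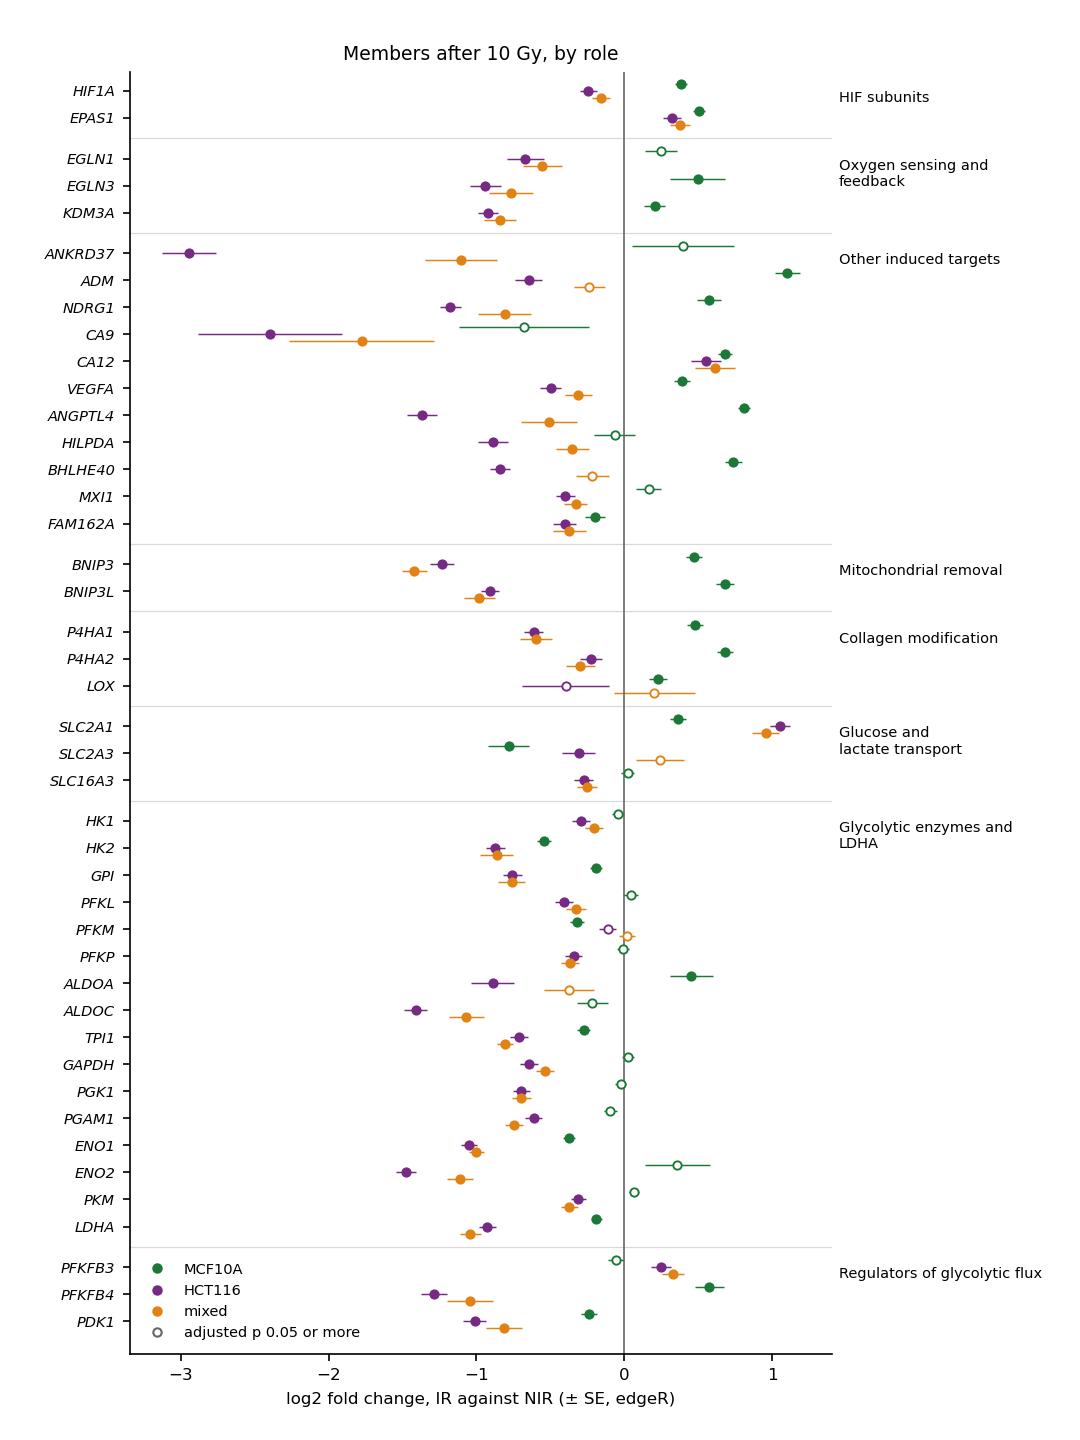
Each row is 1 of the 43 members, grouped by role; the horizontal axis is the log2 fold change of IR against NIR from edgeR, with bars of 1 SE, for MCF10A (green), HCT116 (purple) and mixed cultures (orange), and open circles mark adjusted p-values of 0.05 or more. Purple and orange points lie mostly left of 0, with ANKRD37 in HCT116 at -2.95, and green points on both sides, with ADM at 1.10.

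Promoter windows are printed for 4 members to show the sequence around the start of genes that moved strongly after irradiation in HCT116. ANKRD37, ENO2 and ALDOC had the lowest fold changes there among members of at least 10 CPM and SLC2A1 the highest, and the choice was made after their values were seen. The windows are from RefSeq on GRCh38.p14, each running 5′ to 3′ from 250 bases before to 50 bases after an annotated start. Capitals mark ACGTG or GCGTG on either strand, the core letters of the hypoxia response element to which HIF binds, with CACGTG being an E-box that holds ACGTG on both strands.
ANKRD37, chr4:185396591-185396890, plus strand: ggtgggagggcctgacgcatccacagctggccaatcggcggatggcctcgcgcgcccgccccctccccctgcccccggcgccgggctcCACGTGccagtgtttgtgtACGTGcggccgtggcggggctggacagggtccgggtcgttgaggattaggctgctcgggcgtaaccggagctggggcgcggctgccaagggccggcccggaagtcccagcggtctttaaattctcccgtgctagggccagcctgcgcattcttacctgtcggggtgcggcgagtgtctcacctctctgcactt
ENO2, chr12:6914330-6914629, plus strand: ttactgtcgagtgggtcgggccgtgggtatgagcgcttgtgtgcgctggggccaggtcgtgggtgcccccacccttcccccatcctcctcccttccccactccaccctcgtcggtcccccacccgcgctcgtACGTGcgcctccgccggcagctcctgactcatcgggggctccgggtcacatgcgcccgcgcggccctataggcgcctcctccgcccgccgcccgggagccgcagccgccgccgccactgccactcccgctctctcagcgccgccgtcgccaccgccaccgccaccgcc
ALDOC, chr17:28576846-28577145, minus strand: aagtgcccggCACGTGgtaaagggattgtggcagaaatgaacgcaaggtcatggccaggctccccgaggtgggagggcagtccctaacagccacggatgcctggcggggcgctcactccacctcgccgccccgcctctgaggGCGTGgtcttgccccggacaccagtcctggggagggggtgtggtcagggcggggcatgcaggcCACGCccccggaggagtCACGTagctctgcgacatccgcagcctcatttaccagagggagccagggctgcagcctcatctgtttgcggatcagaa
SLC2A1, chr1:42958819-42959118, minus strand: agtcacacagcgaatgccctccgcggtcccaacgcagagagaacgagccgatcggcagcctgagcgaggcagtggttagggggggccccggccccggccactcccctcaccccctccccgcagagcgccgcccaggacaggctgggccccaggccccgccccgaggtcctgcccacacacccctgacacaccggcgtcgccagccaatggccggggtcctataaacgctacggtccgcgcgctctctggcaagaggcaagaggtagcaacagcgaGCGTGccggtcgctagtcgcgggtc
The ALDOC window holds 4 runs of capitals and the ANKRD37 window 2, while ENO2 and SLC2A1 each hold 1. Of the 43 members, 38 matched the RefSeq table, with 70 windows among them. BNIP3L, VEGFA, HILPDA, SLC2A3 and NDRG1 had no window there. ACGTG or GCGTG stood in 49 of the 70 member windows (70%) and in 48.4% of all 35116 windows of the same length. ACGTG alone stood in 42.9% of member windows and 21.4% of all, and GCGTG in 42.9% and 36.5%. CACGTG stood in 12.9% and 7.26%. Of the 38 matched members, which have up to 7 windows each, 35 (92.1%) had the core in at least 1 window, against 52.4% of the 27305 genes of the table. A gene with more windows has more places for a match. The 38 members had 70 windows and the 27305 genes had 35116, so these 2 shares are not on equal terms. SLC2A1, which rose, and ALDOC, which fell, both carry such letters. A match is a description of the letters and does not show that a factor binds.

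HIF1A moved in opposite directions in the 2 lines, and EPAS1 moved in 1 direction. HIF1A, the subunit found in most cell types, was at 501, 507 and 541 CPM in MCF10A NIR and 671, 692 and 687 CPM in MCF10A IR (log2 fold change 0.38 with SE 0.0393, adjusted p = 2.6e-09). It was at 155, 154 and 153 CPM in HCT116 NIR and 128, 127 and 134 CPM in HCT116 IR (log2 fold change -0.24 with SE 0.0574, adjusted p = 0.0011). All IR libraries were above all NIR libraries in MCF10A and below them in HCT116. Mixed cultures had HIF1A at 161, 159 and 148 CPM without and 131, 146 and 150.3 CPM with irradiation (log2 fold change -0.16 with SE 0.0613, adjusted p = 0.039). The mixed groups overlapped, and this call was lost without mixed NIR replicate 1 or 2 (adjusted p = 0.080 and 0.11) or mixed IR replicate 1 (-0.10, adjusted p = 0.21), with upper-quartile normalization (adjusted p = 0.11) and with all 18 libraries in 1 fit (adjusted p = 0.062).

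EPAS1, the subunit prominent in endothelial and some epithelial cells, rose in every kind of culture. Its levels were 383, 367 and 368 CPM in MCF10A NIR and 534, 558 and 521 CPM in MCF10A IR (log2 fold change 0.51 with SE 0.04, adjusted p = 1.3e-11). In HCT116 they were 103, 95.5 and 102 CPM and 129, 119.5 and 126 CPM (log2 fold change 0.33 with SE 0.0616, adjusted p = 0.00011). Mixed cultures gave 73.9, 88.1 and 82.6 CPM and 105, 111 and 108 CPM (log2 fold change 0.38 with SE 0.068, adjusted p = 8.8e-05). The IR libraries were all above the NIR libraries in each of these 3 comparisons. The smaller rise in HCT116 than in MCF10A (-0.26 on the log2 scale, SE 0.0702, adjusted p = 0.0045) was lost with the mitochondrially encoded genes left out (-0.16, adjusted p = 0.079), without a filter or with all 18 libraries in 1 fit (adjusted p = 0.12 in each) and without any single MCF10A IR library or HCT116 IR replicate 2 (the last at -0.12, adjusted p = 0.21).

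Oxygen sensing and feedback genes fell in HCT116. EGLN3, a prolyl hydroxylase strongly induced by HIF, was at 22.4, 24.2 and 23.1 CPM in HCT116 NIR and 11.8, 13.0 and 11.3 CPM in HCT116 IR (log2 fold change -0.94 with SE 0.105, adjusted p = 7.8e-08). The mixed cultures held it at 22.3, 18.1 and 25.9 CPM and 16.0, 9.54 and 14.1 CPM (log2 fold change -0.77 with SE 0.149, adjusted p = 0.0002). Every NIR library was above every IR library in both. In MCF10A EGLN3 was low, at 5.73, 4.23 and 3.42 CPM and 5.77, 7.62 and 5.88 CPM (log2 fold change 0.50 with SE 0.186, adjusted p = 0.025), and that rise was lost without MCF10A IR replicate 2 (0.35, adjusted p = 0.16), MCF10A NIR replicate 2 (0.47, adjusted p = 0.054) or MCF10A NIR replicate 3 (0.34, adjusted p = 0.14).

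EGLN1, the main prolyl hydroxylase of most cells, was at 15.7, 16.8 and 14.5 CPM in HCT116 NIR and 11.2, 8.42 and 9.83 CPM in HCT116 IR (log2 fold change -0.67 with SE 0.126, adjusted p = 0.0001). It was at 17.3, 12.3 and 16.8 CPM in mixed NIR and 11.5, 9.22 and 11.4 CPM in mixed IR (log2 fold change -0.55 with SE 0.132, adjusted p = 0.0015). In MCF10A it was at 13.8, 14.8 and 14.4 CPM and 15.1, 19.7 and 17.2 CPM (log2 fold change 0.25 with SE 0.108, adjusted p = 0.052), which missed the threshold. It passed in DESeq2 (adjusted p = 0.048), with upper-quartile normalization (0.011), with halved counts (0.035), and without MCF10A IR replicate 1 (0.34, adjusted p = 0.017) or MCF10A NIR replicate 2 (adjusted p = 0.047). EGLN1 libraries of the 2 treatments did not overlap in any of the 3 kinds of culture. KDM3A, a histone demethylase induced by hypoxia, fell from 218 ± 16.9 to 114 ± 8.79 CPM in HCT116 and from 206 ± 46.0 to 117 ± 16.0 CPM in the mixed cultures (log2 fold changes -0.92 and -0.84). In MCF10A KDM3A rose by 0.21, with overlapping groups, and the call was lost without MCF10A IR replicate 2 or 3 (adjusted p = 0.077 and 0.065) or MCF10A NIR replicate 3 (0.16, adjusted p = 0.083) and with all 18 libraries in 1 fit (adjusted p = 0.15).

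Among the 11 other induced targets, 6 rose in MCF10A and 1 fell, while 10 fell in HCT116 and 1 rose. Over all genes tested, 26.2% rose and 29.2% fell in MCF10A, and 27.2% fell and 25.3% rose in HCT116. ANKRD37, an ankyrin repeat protein of little known function and an established HIF target, fell the most in HCT116, from 17.8, 16.8 and 20.8 CPM to 3.11, 1.54 and 2.60 CPM (log2 fold change -2.95 with SE 0.184, adjusted p = 4.8e-12). Every NIR library was above every IR library. In MCF10A it was near 1 CPM in both groups, at 1.68, 1.13 and 0.888 CPM and 2.06, 1.57 and 1.35 CPM, with overlapping libraries (log2 fold change 0.40 with SE 0.344, adjusted p = 0.34). In the GENCODE 29 annotation, 35.2% of its exon bases lie over exons of UFSP2 on the opposite strand, and UFSP2 was at 24.8 CPM in HCT116 NIR and 18.3 CPM in HCT116 IR. Whether the counting used strand is not given in the sources used here, so reads of this pair may not have been told apart.

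ADM, which encodes the vessel-dilating peptide adrenomedullin, had the largest rise of a member in MCF10A. It was at 20.2, 16.7 and 18.0 CPM in MCF10A NIR and 39.2, 42.2 and 38.5 CPM in MCF10A IR (log2 fold change 1.10 with SE 0.0841, adjusted p = 6.3e-12). In HCT116 it was at 81.6, 107 and 90.6 CPM and 66.1, 51.1 and 60.7 CPM (log2 fold change -0.65 with SE 0.0914, adjusted p = 2.6e-06). The groups did not overlap in either line, and the directions were opposite (difference -1.83 on the log2 scale, SE 0.137, adjusted p = 1.1e-10). ADM in the mixed cultures was at 53.0, 46.7 and 62.0 CPM and 54.9, 39.1 and 46.0 CPM, with overlap and no call (log2 fold change -0.24 with SE 0.105, adjusted p = 0.07).

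NDRG1, a stress-induced growth suppressor, was at 581, 619 and 644 CPM in HCT116 NIR and 299, 230.3 and 283 CPM in HCT116 IR (log2 fold change -1.18 with SE 0.0742, adjusted p = 5.5e-12). In MCF10A it was at 287, 238 and 234 CPM and 369, 457 and 319 CPM (log2 fold change 0.57 with SE 0.0799, adjusted p = 5.9e-07). Neither line had overlapping groups, and the responses differed (-1.83 on the log2 scale, SE 0.139, adjusted p = 1.3e-10). The mixed cultures spread widely, at 284, 333 and 508 CPM in NIR and 309, 159 and 185 CPM in IR (log2 fold change -0.81 with SE 0.182, adjusted p = 0.00084), with mixed IR replicate 1 above mixed NIR replicate 1. That call was not made by DESeq2 (adjusted p = 0.089).

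ANGPTL4, a secreted inhibitor of lipoprotein lipase, was at 279.8, 283 and 264 CPM in MCF10A NIR and 491, 500.2 and 482 CPM in MCF10A IR (log2 fold change 0.81 with SE 0.0412, adjusted p = 1.2e-15). It was at 56.8, 68.4 and 63.3 CPM in HCT116 NIR and 24.9, 19.9 and 28.3 CPM in HCT116 IR (log2 fold change -1.37 with SE 0.102, adjusted p = 9.6e-11). Both lines had separate groups with opposite directions, a difference of -2.26 (adjusted p = 5.9e-14). ANGPTL4 in the mixed cultures was at 35.4, 33.3 and 54.1 CPM and 42.8, 20.4 and 24.7 CPM (log2 fold change -0.51 with SE 0.19, adjusted p = 0.031). Those groups overlapped, and the call was lost without mixed NIR replicate 3 (-0.27, adjusted p = 0.25), mixed IR replicate 2 (-0.31, adjusted p = 0.21) or mixed IR replicate 3 (-0.40, adjusted p = 0.14), and in DESeq2 (adjusted p = 0.30).

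BHLHE40, a transcriptional repressor of the circadian clock, was at 64.8, 61.1 and 63.7 CPM in MCF10A NIR and 105, 115 and 101 CPM in MCF10A IR (log2 fold change 0.74 with SE 0.0557, adjusted p = 5e-12). In HCT116 it was at 173, 187 and 179.5 CPM and 107, 91.3 and 101 CPM (log2 fold change -0.84 with SE 0.0649, adjusted p = 1.8e-10). Its 2 groups were separate in each line. In the mixed cultures the libraries overlapped and no call was made (log2 fold change -0.22 with SE 0.113, adjusted p = 0.12). VEGFA, the vascular growth factor, rose from 123 ± 2.24 to 164 ± 14.6 CPM in MCF10A and fell from 87.0 ± 4.67 to 61.4 ± 4.46 CPM in HCT116 (log2 fold changes 0.39 and -0.50). Its fall in the mixed cultures (-0.31) was lost without mixed IR replicate 2 (-0.23, adjusted p = 0.069).

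The 2 carbonic anhydrases, which help cells export acid, did not move together. CA12 was at 288, 262 and 274 CPM in MCF10A NIR and 442, 480.3 and 417 CPM in MCF10A IR (log2 fold change 0.68 with SE 0.0474, adjusted p = 1e-12). It also rose in HCT116, from 14.4 ± 0.691 to 21.0 ± 0.629 CPM, and in the mixed cultures, from 16.8 ± 2.53 to 26 ± 6.31 CPM (log2 fold changes 0.55 and 0.61). CA12 groups did not overlap in any of these. CA9, a widely used marker of hypoxia, stayed near the lower end of detection, with means of 1.79, 2.00 and 1.16 CPM without irradiation in MCF10A, HCT116 and mixed cultures. It fell to 0.364 ± 0.297 CPM in HCT116 IR (log2 fold change -2.40 with SE 0.487, adjusted p = 0.00023). In GENCODE 29, 38.5% of CA9's exon bases lie over exons of ARHGEF39 on the opposite strand, which itself went from 23.5 to 8.51 CPM in HCT116, so the CA9 value may hold reads of that gene.

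HILPDA, a lipid droplet protein, fell in HCT116 from 35.5 ± 4.01 to 19.2 ± 2.02 CPM and was at 7.95 ± 0.493 and 7.70 ± 0.354 CPM in MCF10A (log2 fold changes -0.89 and -0.07, the second not called). In the mixed cultures it fell by 0.35, a call lost without mixed NIR replicate 3 (-0.20, adjusted p = 0.13). MXI1, a MYC antagonist, fell by 0.40 on the log2 scale in HCT116 and was not called in MCF10A (adjusted p = 0.095). FAM162A, a mitochondrial protein linked to cell death, fell in both lines (log2 fold changes -0.20 in MCF10A and -0.40 in HCT116), though its fall in MCF10A was lost without MCF10A NIR replicate 2 (-0.12, adjusted p = 0.14) or MCF10A IR replicate 3 (-0.18, adjusted p = 0.059), with upper-quartile normalization (adjusted p = 0.17) and with all 18 libraries in 1 fit (adjusted p = 0.15). The difference between its 2 responses (-0.28, adjusted p = 0.043) was lost in DESeq2 (adjusted p = 0.076), without a filter (0.20), with all 18 libraries (0.39) and without mitochondrially encoded genes (0.21). It was also lost without any 1 of the MCF10A IR libraries, MCF10A NIR replicate 1 or 3, HCT116 IR replicate 2 or 3 or HCT116 NIR replicate 2, and was smallest without HCT116 IR replicate 2 (-0.16, adjusted p = 0.32).

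**Figure D2:**
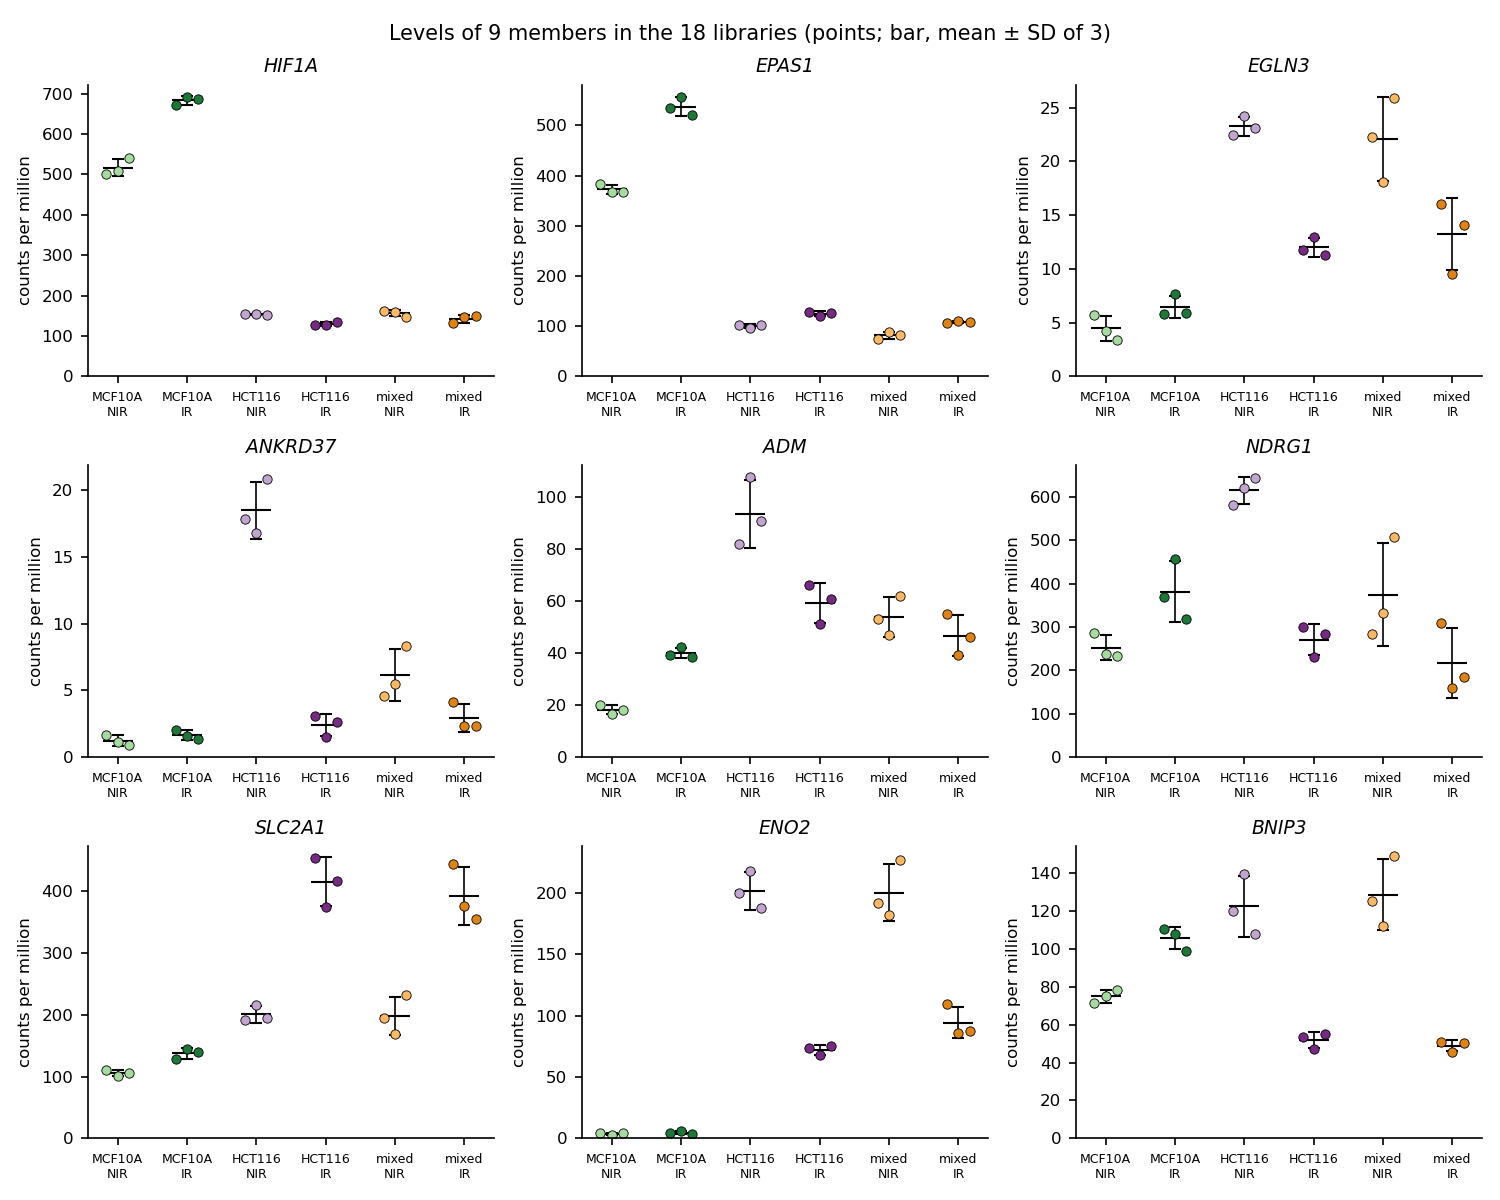
Levels in CPM (vertical axes, starting at 0) of 9 members in each of the 18 libraries; points are libraries in the order of replicates 1 to 3 and bars are the mean ± SD of 3. HCT116 IR lies below HCT116 NIR for EGLN3, ANKRD37, ADM, NDRG1, ENO2 and BNIP3 and above it for SLC2A1 and EPAS1.

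BNIP3 and BNIP3L encode receptors on the outer mitochondrial membrane that mark mitochondria for removal by autophagy. BNIP3 was at 119.7, 139.6 and 108 CPM in HCT116 NIR and 53.6, 47.2 and 55.1 CPM in HCT116 IR (log2 fold change -1.23 with SE 0.0813, adjusted p = 1.2e-11). It fell the most among called members of at least 10 CPM in the mixed cultures, from 125, 112 and 149 CPM to 50.8, 45.6 and 50.4 CPM (log2 fold change -1.42 with SE 0.0839, adjusted p = 1.1e-11). In MCF10A it rose from 75.0 ± 3.37 to 106 ± 5.97 CPM (log2 fold change 0.47 with SE 0.055, adjusted p = 2.6e-08). BNIP3 groups were apart in all 3 kinds of culture.

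BNIP3L was at 63.7, 59.2 and 57.2 CPM in MCF10A NIR and 104, 100.1 and 89.8 CPM in MCF10A IR (log2 fold change 0.68 with SE 0.0597, adjusted p = 1e-10). Its levels in the mixed cultures were 192, 178 and 267 CPM and 121, 98.6 and 110.0 CPM (log2 fold change -0.98 with SE 0.105, adjusted p = 1e-07). It fell from 215 ± 16.5 to 114 ± 0.702 CPM in HCT116 (log2 fold change -0.91 with SE 0.0631, adjusted p = 3e-11). Every MCF10A IR library was above every MCF10A NIR library, and the order was the reverse in HCT116 and in the mixed cultures. The responses of the 2 lines differed by -1.78 for BNIP3 and -1.67 for BNIP3L (adjusted p = 2e-12 and 3e-13).

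All 3 collagen-modifying members rose in MCF10A, where 26.2% of all genes tested rose. P4HA2, a collagen prolyl hydroxylase, was at 71.2, 63.6 and 66.0 CPM in MCF10A NIR and 108, 108 and 111 CPM in MCF10A IR, with no overlap (log2 fold change 0.68 with SE 0.0531, adjusted p = 1e-11). P4HA1, its paralogue, went from 80.1 ± 1.40 to 113 ± 5.16 CPM in MCF10A, and HCT116 from 217 ± 18.4 to 141 ± 3.62 CPM (log2 fold changes 0.48 and -0.61). The fall of P4HA2 in HCT116 was small (-0.23) and was lost without HCT116 NIR replicate 2 (-0.18, adjusted p = 0.094) or HCT116 IR replicate 2 (-0.19, adjusted p = 0.068). LOX, which cross-links collagen, rose from 66.6 ± 5.60 to 79.2 ± 1.54 CPM in MCF10A (log2 fold change 0.23 with SE 0.0589, adjusted p = 0.0016), a call lost with all 18 libraries in 1 fit (adjusted p = 0.14). In HCT116 LOX stood at 2.35 ± 0.727 and 1.79 ± 0.25 CPM, with no call. The difference between the 2 responses (-0.73 on the log2 scale, SE 0.2, adjusted p = 0.0051) was lost with all 18 libraries in 1 fit (adjusted p = 0.053) and without HCT116 NIR replicate 1 (-0.44, adjusted p = 0.086) or HCT116 IR replicate 2 (-0.53, adjusted p = 0.071).

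SLC2A1 had the largest rise of a member in HCT116. It encodes GLUT1, the main glucose transporter of most cells, and was at 191, 216 and 195 CPM in HCT116 NIR and 454, 374 and 417 CPM in HCT116 IR (log2 fold change 1.05 with SE 0.0677, adjusted p = 7.9e-12). In the mixed cultures it was at 194, 169 and 231 CPM and 445, 376 and 355 CPM (log2 fold change 0.96 with SE 0.0893, adjusted p = 1.3e-08). In MCF10A it rose less, from 105 ± 5.33 to 138 ± 8.63 CPM (log2 fold change 0.36 with SE 0.0526, adjusted p = 1.1e-06). The IR libraries were above all NIR libraries in each kind of culture. It was the only member whose response was higher in HCT116 than in MCF10A in the edgeR fit described (difference 0.61 on the log2 scale, SE 0.0926, adjusted p = 8.3e-06), and other settings called up to 4 such members.

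SLC2A3, which encodes the high-affinity transporter GLUT3, was at 30.4, 23.9 and 25.5 CPM in MCF10A NIR and 15.0, 20.9 and 11.4 CPM in MCF10A IR (log2 fold change -0.78 with SE 0.136, adjusted p = 1.7e-05). The groups were apart, with the 3 NIR libraries on top. In HCT116 it fell from 17.3 ± 0.894 to 13.9 ± 1.16 CPM (log2 fold change -0.31 with SE 0.11, adjusted p = 0.022), a call lost without HCT116 NIR replicate 1 (-0.28, adjusted p = 0.067) or HCT116 IR replicate 3 (-0.24, adjusted p = 0.10) and with all 18 libraries in 1 fit (adjusted p = 0.18). SLC16A3, the lactate exporter MCT4, was at 393 ± 18.8 and 406 ± 13.7 CPM in MCF10A with no call. It fell from 261 ± 8.51 to 215 ± 15.9 CPM in HCT116 and from 272 ± 27.4 to 233 ± 13.3 CPM in the mixed cultures (log2 fold changes -0.28 and -0.25).

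The glycolytic enzymes fell together in HCT116. Of the 16 enzymes of the pathway with LDHA, 15 fell and none rose in HCT116, 14 fell and none rose in the mixed cultures, and 6 fell and 1 rose in MCF10A. Over all genes tested, 27.2% fell and 25.3% rose in HCT116, and 25.4% fell and 24% rose in the mixed cultures. In MCF10A 29.2% of all genes tested fell and 26.2% rose. Their combined share of all counts went from 1.51% ± 0.0725 to 0.921% ± 0.0264 in HCT116 and from 1.51% ± 0.124 to 0.943% ± 0.0437 in the mixed cultures. In MCF10A it was 1.33% ± 0.0419 and 1.24% ± 0.0431. NIR and IR libraries were apart in all 3, with bounds of 1.31% and 1.29% in MCF10A at the nearest. The median log2 fold change of the 16 was -0.70 in HCT116, -0.72 in the mixed cultures and -0.067 in MCF10A.

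**Figure D3:**
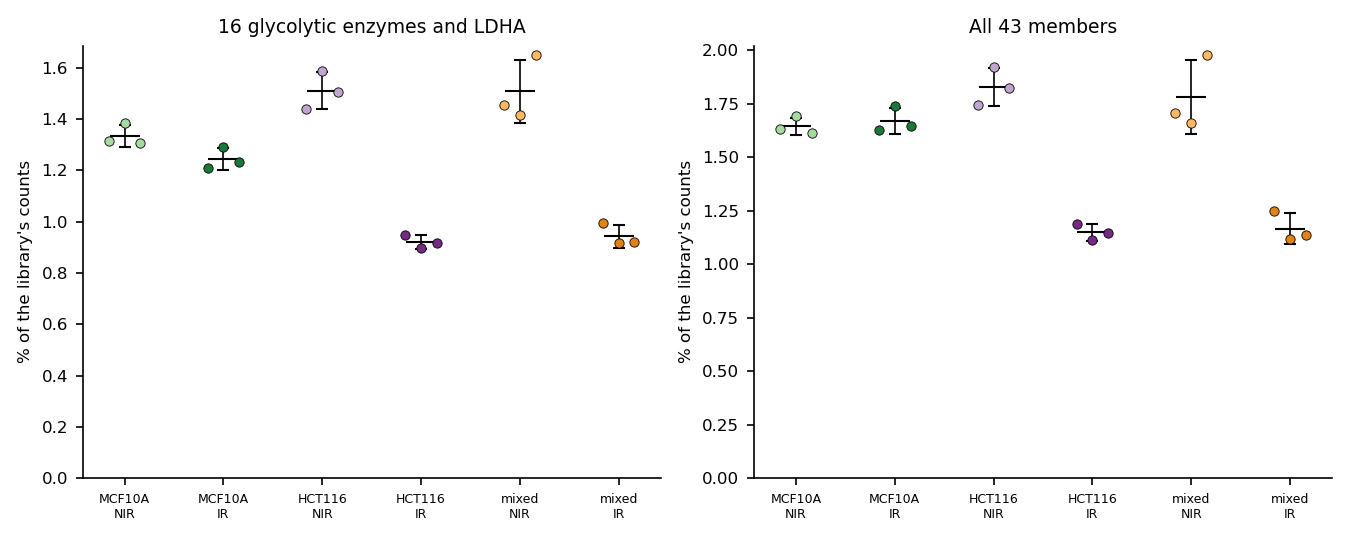
Share of each library's counts (vertical axes, %) taken by the 16 glycolytic enzymes and LDHA (left) and by all 43 members (right); points are libraries and bars the mean ± SD of 3. For the 16 enzymes, HCT116 and mixed IR libraries sit between 0.897% and 0.994%, below all NIR libraries and below MCF10A IR.

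The first steps of glycolysis trap and rearrange glucose. HK2, the inducible hexokinase, fell in all 3 kinds of culture, from 130.3 ± 0.646 to 90.9 ± 2.60 CPM in MCF10A, and HCT116 from 206 ± 14.7 to 112 ± 3.33 CPM (log2 fold changes -0.54 and -0.87). The difference between these responses (-0.41, adjusted p = 0.00016) was lost with all 18 libraries in 1 fit (-0.31, adjusted p = 0.082). HK1, the constitutive hexokinase, fell by 0.29 in HCT116 and was at -0.04 in MCF10A with no call. GPI, which turns glucose 6-phosphate into fructose 6-phosphate, fell from 767 ± 38.3 to 452 ± 39.6 CPM in HCT116, with a smaller fall in MCF10A (log2 fold changes -0.76 and -0.19), the latter lost with all 18 libraries in 1 fit (adjusted p = 0.056). The 3 phosphofructokinase genes had different calls. PFKL and PFKP, the liver-type and platelet-type subunits, fell in HCT116 (log2 fold changes -0.41 and -0.34) and were not called in MCF10A. PFKM, the muscle-type subunit, fell in MCF10A by 0.32 and was the enzyme with no call in HCT116 (-0.11, adjusted p = 0.1).

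Aldolases split fructose 1,6-bisphosphate. ALDOC, the brain-type aldolase, was at 77.5, 93.9 and 88.4 CPM in HCT116 NIR and 33.5, 31.3 and 32.4 CPM in HCT116 IR (log2 fold change -1.41 with SE 0.0778, adjusted p = 5.5e-13). Mixed cultures held it at 59.4, 63.4 and 83.6 CPM and 41, 28.9 and 30.5 CPM (log2 fold change -1.07 with SE 0.12, adjusted p = 2e-07). The groups were apart in both. ALDOC was at 17.0 ± 1.18 and 14.8 ± 1.26 CPM in MCF10A, with no call. In GENCODE 29, 10.1% of ALDOC's exon bases lie over exons of AC005726.4 on the opposite strand, which is not among the symbols listed. ALDOA, the ubiquitous aldolase, was listed at only 6.04 CPM in MCF10A NIR and 13.1 CPM in HCT116 NIR. In GENCODE 29, 42.3% of its exon bases are shared on the same strand with another protein-coding gene, AC093512.2, so its counts are uncertain and its changes (log2 fold changes 0.45 in MCF10A and -0.89 in HCT116) may not be those of the whole gene. The rise in MCF10A was lost without MCF10A IR replicate 2 (adjusted p = 0.055).

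The lower pathway turns triose phosphates into pyruvate and lactate. ENO1, the main enolase, went from 3458 ± 184 to 1661 ± 45.1 CPM in HCT116 (log2 fold change -1.05 with SE 0.0515, adjusted p = 7.6e-14). ENO1 in the mixed cultures was at 3392, 3332 and 3629.7 CPM and 1824, 1713 and 1726 CPM (log2 fold change -1.0 with SE 0.0516, adjusted p = 1.4e-12). It also fell in MCF10A, from 2815 ± 160.0 to 2206 ± 66.2 CPM (log2 fold change -0.37 with SE 0.0396, adjusted p = 4.6e-09). LDHA, which reduces pyruvate to lactate, was at 2197, 1926 and 2369 CPM in mixed NIR and 1178, 1007 and 1027 CPM in mixed IR (log2 fold change -1.04 with SE 0.0692, adjusted p = 7.1e-11). It went from 2009 ± 162 to 1052 ± 28.2 CPM in HCT116 and from 2859.6 ± 73.3 to 2546 ± 142 CPM in MCF10A (log2 fold changes -0.93 and -0.19). For both genes all NIR libraries were above all IR libraries in every kind of culture, and the fall was deeper in HCT116 than in MCF10A (differences -0.75 and -0.81, adjusted p = 2.4e-09 and 2.1e-09).

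ENO2, the neuronal enolase, was at 199.5, 218 and 187 CPM in HCT116 NIR and 73.3, 67.7 and 75.5 CPM in HCT116 IR (log2 fold change -1.48 with SE 0.0662, adjusted p = 1.7e-14). In the mixed cultures it was at 192, 182 and 226 CPM and 109, 86.0 and 87.6 CPM (log2 fold change -1.11 with SE 0.0861, adjusted p = 7.5e-10). No library of one treatment reached the other in either. In MCF10A it was at 4.29, 2.39 and 3.96 CPM and 4.41, 5.69 and 3.76 CPM, with overlap and no call (log2 fold change 0.36 with SE 0.221, adjusted p = 0.17).

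GAPDH, which oxidizes glyceraldehyde 3-phosphate and is often used as a reference gene, fell from 3085 ± 284 to 1964 ± 85.9 CPM in HCT116 and was at 2328 ± 138 and 2402 ± 95 CPM in MCF10A (log2 fold changes -0.64 and 0.02, the second not called). The 95% interval of its log2 fold change in MCF10A was -0.06 to 0.10. PGK1, which makes the first ATP of the pathway, had the same order, from 958 ± 75.6 to 588 ± 14.7 CPM in HCT116 (log2 fold change -0.70) with a 95% interval of -0.10 to 0.05 in MCF10A. TPI1, the triose phosphate isomerase, fell in both lines (log2 fold changes -0.27 in MCF10A and -0.71 in HCT116). PGAM1, the phosphoglycerate mutase, fell by 0.61 in HCT116 and missed the threshold in MCF10A (adjusted p = 0.063). PKM, the pyruvate kinase of most tissues, had the smallest called fall of the lower pathway in HCT116, from 2251 ± 96.0 to 1805 ± 36.7 CPM (log2 fold change -0.31).

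The 3 regulators of flux had different calls. PFKFB4, which makes and removes the phosphofructokinase activator fructose 2,6-bisphosphate, was at 15.2, 14.0 and 13.3 CPM in MCF10A NIR and 22, 21.6 and 20.7 CPM in MCF10A IR (log2 fold change 0.58 with SE 0.0965, adjusted p = 9.8e-06). It was at 65.8, 77.9 and 67.0 CPM in HCT116 NIR and 31.8, 28.2 and 25.6 CPM in HCT116 IR (log2 fold change -1.29 with SE 0.0879, adjusted p = 2.2e-11). The mixed cultures held it at 63.9, 55.2 and 105 CPM and 42.1, 30.8 and 38.0 CPM (log2 fold change -1.04 with SE 0.156, adjusted p = 9.4e-06). Groups were apart in all 3, with IR on top in MCF10A alone. PFKFB3, a paralogue that favours making the activator, rose from 70.5 ± 3.69 to 83.4 ± 4.64 CPM in HCT116 and from 68.9 ± 7.01 to 88.3 ± 4.41 CPM in the mixed cultures (log2 fold changes 0.25 and 0.33). PDK1, the kinase that shuts off pyruvate dehydrogenase, fell from 98.9 ± 12.3 to 48.8 ± 2.45 CPM in HCT116 and from 68.5 ± 1.03 to 58.9 ± 1.86 CPM in MCF10A (log2 fold changes -1.01 and -0.24). The fall of PDK1 in MCF10A was lost with all 18 libraries in 1 fit (adjusted p = 0.076).

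Before irradiation the 2 lines already differed in most members. Medium, genotype and reporter go with the line here too, and their parts cannot be told apart. HCT116 was higher than MCF10A in 26 of the 43 and lower in 14, where 38.7% of all genes tested were higher and 36.1% lower. The members' median was 0.32, beside 0.049 over all genes. ENO2 had the largest difference, at 202 CPM in HCT116 and 3.55 CPM in MCF10A (log2 fold change 5.64 with SE 0.122, adjusted p = 2.7e-17). ANKRD37, ALDOC, EGLN3 and ADM were also higher in HCT116 (log2 fold changes 3.69, 2.15, 2.18 and 2.15), with the library values given above and no overlap. KDM3A and PFKFB4 were higher by 2.14 and 2.11.

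MCF10A was higher in LOX, CA12 and ANGPTL4. LOX was at 73.1, 63.2 and 63.6 CPM in MCF10A NIR and 3.18, 1.86 and 1.99 CPM in HCT116 NIR (log2 fold change -5.01 with SE 0.138, adjusted p = 8.1e-16). CA12 was at 288, 262 and 274 CPM in MCF10A NIR and 14.3, 15.1 and 13.8 CPM in HCT116 NIR (log2 fold change -4.45 with SE 0.0651, adjusted p = 1.3e-19). ANGPTL4 differed by -2.33 (adjusted p = 1.4e-15). None of these 3 overlapped between the lines. Both HIF subunits were lower in HCT116, HIF1A by 1.94 and EPAS1 by 2.09 on the log2 scale, while EGLN3 was higher there. LDHA, HK1 and SLC16A3 were also lower in HCT116 (log2 fold changes -0.71, -1.40 and -0.79). For PFKP and PKM, both at -0.20, upper-quartile normalization turned the value to 0.0028 and 0.0047. That normalization moved the median of all genes to 0.25 and the members' counts to 27 higher and 12 lower, with 62.4% of called genes higher in place of 51.8%.

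Most members were not called between the mixed cultures and HCT116 alone, and 7 of the 11 other induced targets were. Without irradiation, 8 of the 43 members were lower in the mixed cultures than in HCT116 and 0 were higher, where 1.15% of all genes tested were lower and 0.887% higher. The members' median was -0.019, beside -0.0043 over all genes. The 8 were ANKRD37, HILPDA, ADM, NDRG1, ANGPTL4, BHLHE40, MXI1 and ALDOA. The 2 HIF subunits, the 3 oxygen sensing genes, the 3 transporters, the 3 regulators of flux and 15 of the 16 glycolytic enzymes were not called.

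ANKRD37 was at 17.8, 16.8 and 20.8 CPM in HCT116 NIR and 4.58, 5.51 and 8.34 CPM in mixed NIR (log2 fold change -1.56 with SE 0.172, adjusted p = 2.8e-05). HILPDA was at 31.6, 39.6 and 35.3 CPM and 18.5, 18.3 and 24.7 CPM (log2 fold change -0.77 with SE 0.117, adjusted p = 0.0008). ADM was at 81.6, 107 and 90.6 CPM and 53.0, 46.7 and 62.0 CPM (log2 fold change -0.77 with SE 0.102, adjusted p = 0.00019). For these 3 every mixed library was below every HCT116 library, and the calls were kept in every setting tried and without any 1 library.

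The other 5 calls were lost when single libraries were left out, and 4 of them in another setting too. DESeq2 did not call NDRG1, ANGPTL4 or BHLHE40 (adjusted p = 0.13, 0.18 and 0.10). MXI1 was lost with all 18 libraries in 1 fit (adjusted p = 0.063). NDRG1 differed by -0.70 (adjusted p = 0.0077), with library values as above and no overlap. BHLHE40 was at 173, 187 and 179.5 CPM in HCT116 NIR and 112, 114 and 158 CPM in mixed NIR (log2 fold change -0.47 with SE 0.097, adjusted p = 0.012). MXI1 was at 119.6, 130.5 and 126 CPM and 93.6, 102 and 110.3 CPM (log2 fold change -0.28 with SE 0.0698, adjusted p = 0.043). ANGPTL4 and ALDOA differed by -0.60 and -0.66 (adjusted p = 0.02 and 0.02), and ALDOA was at 13.1, 12.2 and 14.0 CPM in HCT116 NIR and 7.19, 7.27 and 10.1 CPM in mixed NIR. Without mixed NIR replicate 1 none of these 5 was called (adjusted p = 0.062 for NDRG1, 0.13 for BHLHE40, 0.26 for MXI1, 0.18 for ANGPTL4 and 0.14 for ALDOA). The same 5 were not called without mixed NIR replicate 2 (adjusted p from 0.052 for NDRG1 to 0.10 for MXI1). ANGPTL4, BHLHE40 and MXI1 were also lost without HCT116 NIR replicate 2, ANGPTL4, ALDOA and MXI1 without HCT116 NIR replicate 3, and ALDOA without HCT116 NIR replicate 1. Without mixed NIR replicate 3, 11 members were lower, where 181 of the 16972 genes tested were lower.

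The estimated share of MCF10A RNA in these libraries was set against these values. A weighted mean of the monocultures at that share would change ANKRD37 by -0.0060, ADM by -0.0052, HILPDA by -0.0050 and NDRG1 by -0.0038 on the log2 scale. For CA12 and LOX, which MCF10A holds at high levels, the same sum gives 0.11 and 0.17 without irradiation and 0.32 and 0.62 with it. Their measured differences from HCT116 were 0.23 and 0.04 without and 0.30 and 0.65 with irradiation, none of them called in the edgeR fit described. With a replicate block in that fit, CA12 was called after irradiation (0.28, adjusted p = 0.032). The labels do not give the medium used for mixing, and its part in these differences was not tested.

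**Figure D4:**
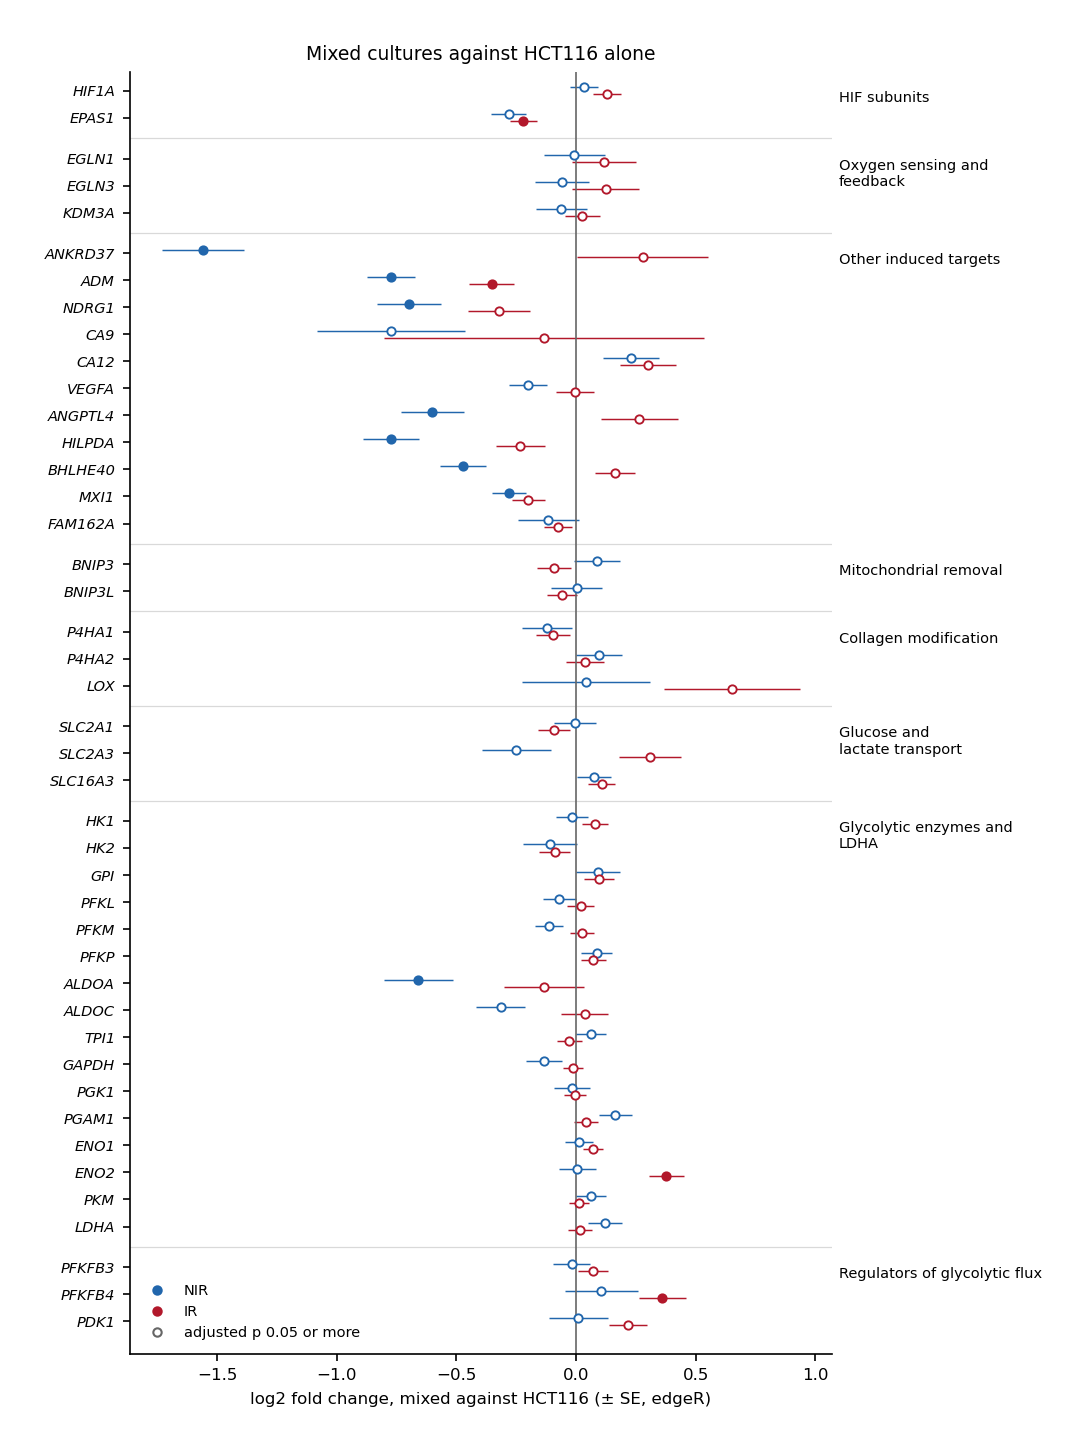
Each row is 1 of the 43 members, grouped by role; the horizontal axis is the log2 fold change of mixed cultures against HCT116 alone from edgeR, with bars of 1 SE, without (blue) and with irradiation (red), and open circles mark adjusted p-values of 0.05 or more. The 8 filled blue points, 7 of them other induced targets, lie left of 0, with ANKRD37 at -1.56. Of the glycolytic enzymes ALDOA is among them, ALDOC is open at -0.32, and the others lie between -0.13 and 0.16.

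After irradiation 2 members were higher and 2 lower in the mixed cultures than in HCT116, where 5.08% of all genes tested were higher and 3.48% lower. The members' median was 0.027, beside 0.0032 over all genes. ENO2 was at 73.3, 67.7 and 75.5 CPM in HCT116 IR and 109, 86.0 and 87.6 CPM in mixed IR, with no overlap (log2 fold change 0.38 with SE 0.0735, adjusted p = 0.00089). PFKFB4 was at 31.8, 28.2 and 25.6 CPM and 42.1, 30.8 and 38.0 CPM, with overlap (log2 fold change 0.36 with SE 0.0979, adjusted p = 0.017). ADM was at 66.1, 51.1 and 60.7 CPM and 54.9, 39.1 and 46.0 CPM, with overlap (log2 fold change -0.35 with SE 0.0933, adjusted p = 0.014). EPAS1 was at 129, 119.5 and 126 CPM and 105, 111 and 108 CPM, and was lower in every mixed library (log2 fold change -0.22 with SE 0.0551, adjusted p = 0.0094). The call for ENO2 alone was kept without any 1 library. Without mixed IR replicate 3 the other 3 were not called (adjusted p = 0.082 for PFKFB4, 0.078 for ADM and 0.061 for EPAS1). Without mixed IR replicate 1 the members lower were 6, where 537 of the 17809 genes tested were lower. PFKFB4 was also lost without mixed IR replicate 1 or HCT116 IR replicate 2 or 3 (adjusted p = 0.15, 0.069 and 0.13), and ADM without mixed IR replicate 2 or HCT116 IR replicate 1 or 3 (adjusted p = 0.16, 0.086 and 0.066). With all 18 libraries in 1 fit neither PFKFB4 nor ADM was called (adjusted p = 0.12 and 0.081). DESeq2 did not call ADM either (adjusted p = 0.24).

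The response to irradiation was higher in the mixed cultures than in HCT116 for 2 members and lower for 0, where 0.681% of all genes tested were higher and 0.149% lower. The members' median difference was 0.092, beside 0.021 over all genes. ANKRD37 differed by 1.85 (SE 0.332, adjusted p = 0.0038), as it began lower in the mixed cultures and ended at 2.42 ± 0.799 CPM in HCT116 IR and 2.93 ± 1.02 CPM in mixed IR. BHLHE40 differed by 0.64 (SE 0.151, adjusted p = 0.039), a call lost in every fit that left out 1 library other than mixed NIR replicate 3 or mixed IR replicate 2 (adjusted p up to 0.17, without mixed NIR replicate 1) and in DESeq2 (adjusted p = 0.16). For the glycolytic enzymes none of the 16 differences was called, with values from -0.12 to 0.53. The 95% intervals of the difference were -0.08 to 0.20 for ENO1 and -0.20 to 0.10 for PKM. ENO2 was at 0.22 to 0.45 when single libraries were left out, without a call. A missing call does not show that the responses were equal.

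The members varied more than other genes between replicate mixed cultures. Their median coefficient of variation was 14.6% in mixed NIR and 11.3% in mixed IR, where the 9921 genes with a mean of at least 10 CPM had medians of 6.16% and 5.04%. In the monocultures the members' medians were 4.82% and 4.55% in MCF10A and 6.73% and 5.64% in HCT116, near those of the other genes (5.33%, 4.91%, 5.99% and 5.65%). Mixed NIR replicate 3 held the highest value of its group for 36 of the 43 members (83.7%), against 32.9% of the 9921 genes. Mixed IR replicate 1 did so for 38 members (88.4%), against 34.2% of those genes. PFKFB4, for example, was at 104.9 CPM in mixed NIR replicate 3 and at 63.9 and 55.2 CPM in the others. Within monocultures, HCT116 NIR replicate 2 and MCF10A IR replicate 2 were each highest for 32 members (74.4%), over smaller ranges. Members share a library, so these counts describe libraries and not independent genes. Without mixed NIR replicate 3, irradiation of the mixed cultures gave 5 members higher and 29 lower, with a median of -0.32. Of the 17578 genes tested in that fit, 3797 were higher and 4193 lower, with a median of 0.010. Without mixed IR replicate 1, irradiation of the mixed cultures gave 4 members higher and 34 lower. There 3596 of the 17492 genes tested were higher and 3974 lower.

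Other genes of the pathway were taken from 3 further lists, also chosen with earlier results of these data known. Of 16 further HIF targets, 12 rose and 1 fell in MCF10A, and 3 rose and 8 fell of the 15 tested in HCT116, with medians of 0.42 and -0.37. Over all genes tested, 26.2% rose and 29.2% fell in MCF10A and 25.3% rose and 27.2% fell in HCT116, which is the background for the counts of all 3 lists. PLOD2, a collagen lysyl hydroxylase, rose from 339 ± 2.33 to 670.5 ± 29.8 CPM in MCF10A and fell from 174 ± 17.2 to 79.6 ± 6.66 CPM in HCT116 (difference -2.16 on the log2 scale, SE 0.086, adjusted p = 1.3e-15). DDIT4, an inhibitor of mTORC1, fell in both lines (log2 fold changes -1.14 and -1.11). The responses of INSIG2, CCNG2 and TMEM45A were lower in HCT116 than in MCF10A by 1.40, 1.31 and 1.25 on the log2 scale. Of 13 genes of the HIF machinery, 12 were tested in each line, with 4 that rose and 2 that fell in MCF10A and the same counts in HCT116.

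Among 27 other genes of glucose metabolism, 2 rose and 6 fell of the 20 tested in MCF10A, and 2 rose and 12 fell of the 21 tested in HCT116. TIGAR, a phosphatase that slows glycolysis, rose from 9.56 ± 0.602 to 31.7 ± 0.404 CPM in HCT116 (log2 fold change 1.73 with SE 0.1, adjusted p = 1.2e-12). It rose in MCF10A from 14.7 ± 1.65 to 24.7 ± 0.972 CPM (log2 fold change 0.73 with SE 0.0974, adjusted p = 3.1e-07). PDK3, a paralogue of PDK1, fell from 85.3 ± 9.06 to 36.3 ± 3.24 CPM in HCT116 (log2 fold change -1.23 with SE 0.0809, adjusted p = 1.2e-11) and was not called in MCF10A. TIGAR rose and PDK3 fell in the mixed cultures (log2 fold changes 1.37 and -1.04). Between the unirradiated lines, PDP1, PDK2, ENO3 and PDK3 were higher in HCT116 (log2 fold changes 4.62, 2.54, 2.43 and 1.73) and SLC16A1 was lower (-1.47).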

How the data were processed

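Raw read counts per gene symbol were deposited by the authors as 1 table per library, without normalization. Libraries came from TRIzol-extracted total RNA through Illumina's stranded mRNA kit, per the labels' protocols, and were read from both ends, per the series text. Read trimming with fastp, alignment with STAR to GRCh38 and counting with featureCounts are named in the submitters' processing notes. Their versions, the annotation, the strand setting and whether read mates were counted singly are not given in the sources used here. Of the values from 1 to 10, 68.3% were even, so fits with counts halved were tried.

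Totals were 25737818 to 40839835 counts per library, and 10180 symbols had no count in any library. Levels are counts × 1000000 over the library total (CPM). Each comparison used edgeR 4.0.16 in R 4.3.3 on the libraries compared, with filterByExpr, TMM factors and the quasi-likelihood test, 2-sided. Differences between responses are interaction contrasts. The p-values were adjusted over all genes tested (Benjamini-Hochberg) and called under 0.05. SE was derived from the log2 fold change and its F statistic, and 95% intervals from the SE. The test was checked on simulated counts.

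Groups came from the sample labels. Libraries with the same replicate number were not treated as pairs: residual correlations over the 15 group pairs were -0.098 to 0.14, and no pair had all 3 numbers over 0.1. Replicates of a group differed by more than counting error (chi-squared per gene of at least 2.49 with counts halved).

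The members and the other lists were chosen with earlier results of these data known. Members given library by library were the 8 with the largest fold changes among called members of at least 10 CPM in the higher group, plus HIF1A, EPAS1, EGLN1 and EGLN3 for irradiation. Genes of the other lists were named where called with a log2 fold change of at least 1 and at least 10 CPM, at most 6 per comparison, and some results that these rules or the design call for, the level of the gene deleted in HCT116 among them, are not reported here. Those given in another comparison than the one that named them were chosen after their values were seen. Line-specific genes for the RNA share had a mean of at least 20 CPM in 1 line while all libraries of the other line lay under 1 CPM. Alternatives were upper-quartile factors, DESeq2 1.42.0, no filter, all 18 libraries in 1 fit, no mitochondrially encoded genes, halved counts, a replicate block and each library left out.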

Additional observations from a re-analysis of the deposited data

Results flagged for a closer look

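The response to 10 Gy differed between HCT116 and MCF10A for 38 of the 43 members, by edgeR's test of the difference itself. Of all genes tested, 15.4% lay above and 21.9% below in HCT116. The calls for EPAS1, FAM162A, LOX and HK2 were lost in 1 or more other fits, as given above. Values are log2 differences, HCT116 minus MCF10A, and SLC2A1 was the only one above 0, at 0.61. The median over all genes tested was -0.10 in this fit. It was -0.0059 with the mitochondrially encoded genes left out. The values listed come from the first of these 2 fits, without adjustment for its median. The HIF subunits were at -0.70 (HIF1A) and -0.26 (EPAS1). The oxygen sensing genes were at -1.0 (EGLN1), -1.52 (EGLN3) and -1.21 (KDM3A). Among other induced targets, ANKRD37 was at -3.41, ADM at -1.83, NDRG1 at -1.83, VEGFA at -0.97, ANGPTL4 at -2.26, HILPDA at -0.90, BHLHE40 at -1.66, MXI1 at -0.64 and FAM162A at -0.28. The mitochondrial receptors were at -1.78 (BNIP3) and -1.67 (BNIP3L), and the collagen genes at -1.17 (P4HA1), -0.99 (P4HA2) and -0.73 (LOX).

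The lactate exporter SLC16A3 was at -0.38. Of the glycolytic enzymes, HK1 was at -0.33, HK2 at -0.41, GPI at -0.64, PFKL at -0.53, PFKP at -0.41, ALDOA at -1.42, ALDOC at -1.27, TPI1 at -0.51, GAPDH at -0.75, PGK1 at -0.75, PGAM1 at -0.60, ENO1 at -0.75, ENO2 at -1.91, PKM at -0.46 and LDHA at -0.81. The flux regulators PFKFB4 and PDK1 were at -1.94 and -0.85. Between mixed cultures and HCT116, the same kind of test set 2 responses apart, ANKRD37 at 1.85 and BHLHE40 at 0.64 (mixed minus HCT116).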

How the results depend on the processing

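Calls on members were kept in every fit run, alternatives and single libraries left out included, for 20 of 27 in MCF10A, 39 of 41 in HCT116, 29 of 37 in the mixed cultures, 35 of 40 between the unirradiated lines and 34 of 38 between the responses of the lines. They were kept for 3 of 8 between mixed NIR and HCT116 NIR, 1 of 4 after irradiation and 1 of 2 between those responses. The cause of the changes below was not tested. Members with a higher response in HCT116 than in MCF10A numbered 2 in DESeq2, 4 without a filter, 3 with all 18 libraries in 1 fit, 3 without mitochondrially encoded genes and 2 with halved counts, and 1 to 4 when single libraries were left out. Over all genes, those higher were 3097, 3525, 3565, 3571 and 2781 in these 5 settings in turn, and 2801 in the fit described. For mixed NIR against HCT116 NIR, 335 genes were called in all, and 576 in DESeq2, 671 without a filter, 768 with all 18 libraries and 716 with the replicate block, while leaving out single libraries gave 145 to 313 and 3 to 11 members lower. For mixed IR against HCT116 IR, members higher were 4 without a filter, 5 with the replicate block and 1 to 3 without single libraries. Members lower were 1 in DESeq2, 4 without a filter, 1 with all 18 libraries, 4 with the replicate block and 0 to 6 without single libraries. All genes called there were 1467, 1592 in DESeq2, 1593 without a filter, 1338 with all 18 libraries, 2220 with the replicate block and 866 to 1312 without single libraries. Between the responses of mixed cultures and HCT116, members higher were 1 in DESeq2, 7 without a filter and 1 to 4 without single libraries, and all genes called were 150, 327 in DESeq2, 336 without a filter and 64 to 197 without single libraries. PFKP and PKM between the unirradiated lines turned to 0.0028 and 0.0047 under upper-quartile normalization. The share of MCF10A RNA was 0.704% in NIR and 2.17% in IR from summed CPM, and 0.345% and 1.07% from genes of at least 50 CPM.

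The share of called genes that were higher moved from 43.6% to 63.8% (mixed NIR) and from 59.4% to 80.5% (mixed IR) with all 18 libraries in 1 fit, and from 82% to 61.5% in DESeq2 for the difference between those responses. For the responses of the lines it was 51.9% without a filter and 51.8% with all 18 libraries. Residual correlations were best with the own replicate number for 5 of the 6 libraries of HCT116 NIR and mixed NIR. The same held for 5 of 6 in HCT116 IR and mixed IR. It also held for 6 of 6 in MCF10A NIR and mixed IR, and for 4 of 6 in MCF10A NIR and HCT116 IR. Under the replicate block, irradiation of the mixed cultures lost HIF1A (adjusted p = 0.059) and gained ADM (0.029), MCF10A gained PGAM1 and PKM (0.044 each), and the difference between the lines' responses gained CA9 (0.024). Members lower in mixed NIR than in HCT116 NIR were then 10, with EPAS1 and ALDOC gained (0.013 and 0.0075), and they were 6 in DESeq2 and 10 without a filter. Between mixed IR and HCT116 IR the block gained NDRG1 and MXI1 as lower (5.2e-08 and 0.0039). It gained CA12, BHLHE40 and PDK1 there as higher (0.032, 0.04 and 0.016). CA9, ANKRD37 in MCF10A and LOX in HCT116 lie near 1 or 2 CPM, where counts limit the precision.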
